A study of Homo sapiens with 6 samples.

Results

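The response to DLEU1 knockdown in HSC-3 cells that KON and Ca9-22 cells did not share is described here, gene by gene and by gene list. All are established human lines, grown out of oral squamous cell carcinoma (OSCC). Each line was transfected with a small interfering RNA against the long noncoding RNA DLEU1 (siDLEU1, named siDLEU1-2 in the study's text) or with a control siRNA (siCtrl), and RNA was collected 72 h later. Each line and siRNA gave 1 one-color microarray from 100 ng of total RNA, 6 arrays in all, on 1 slide. The labels name no other treatment, and the knockdown was transient, from 1 siRNA sequence.

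A probe entered the comparison if every one of the 6 arrays measured it well above background, which left 18094 of 50599 probes, with 14015 gene names. Levels are log2 processed signals from which the 75th percentile of the array was subtracted, and a fold change is siDLEU1 over siCtrl within a line. A level written as going from one value to another goes from the siCtrl array to the siDLEU1 array. The difference given for a probe is its log2 fold change in HSC-3 minus the mean of those in KON and Ca9-22. A probe was counted as HSC-3-only where the fold change was over 2 in HSC-3 and under 1.5 in either direction in KON and in Ca9-22, with a difference over 1 in size. By this rule 218 probes with 202 gene names were HSC-3-only, of which 139 were higher (0.768% of the probes tested) and 79 were lower (0.437%) after siDLEU1. The fold changes that chose them are given below as a description, since with a single array per line and siRNA a change within a line has no error of its own. Loss of RNA per cell and loss of cells of a kind cannot be told apart in such bulk samples.

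Signal in the 3 lines was similar. The processed signal at the 75th percentile was between 200.5 and 256.8 on the arrays, and 43% to 45.66% of the probes were well above background. The SD between spots of the same probe on an array had a median of 0.0595 to 0.0656 in log2 units, a measure of spot error and not of error between cultures. Of 16 markers of squamous epithelium, every array measured 14 well above background. Only COL1A1 of 9 fibroblast markers, none of 7 endothelial markers, and only CD14 of 9 leukocyte markers were so. The endothelial markers VWF and CDH5 passed on 5 arrays, as did the squamous markers TP63 and FAT2. The fibroblast marker FAP passed on 4. DLEU1 itself was lower in every line. Its log2 level went from 1.39 to -2.71 in HSC-3, from 2.16 to -1.48 in KON, and from 1.56 to -1.88 in Ca9-22. The log2 fold changes of -4.10, -3.63, and -3.44 give a difference of -0.56 for HSC-3, and this difference was 0.10 with normexp background correction, so no order of the lines is read from it.

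The same siRNA was used in each line, and its strands are shown because it sets the siDLEU1 arrays apart from the siCtrl arrays. The capitals mark the seed, positions 2 to 8 of the antisense strand, counted from its 5′ end, through which an siRNA can also bind other transcripts.
siDLEU1-2 sense: cagggguuaucgcacuuaagc
siDLEU1-2 antisense: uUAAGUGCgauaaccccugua

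Gene programs of inflammation, amino acid stress, and lipid synthesis recur below. NF-kappaB transcription factors are held in the cytoplasm by inhibitors and, once freed, switch on chemokine and cytokine genes together with genes of their own inhibitors and subunits. ATF4 is made when cells lack amino acids or load the endoplasmic reticulum, and it switches on amino acid transporters, aminoacyl-tRNA synthetases, and genes of glutathione metabolism. SREBP factors raise the enzymes of cholesterol and fatty acid synthesis when membrane sterols are low.

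Promoters of genes in the first of these groups were searched for the NF-kappaB consensus, a motif of 10 letters, and those in the second for the amino acid response element TGATGNAA that ATF4 binds, on both strands. The sequences are RefSeq's for GRCh38.p14, with 250 bases before and 50 after the start of a gene. The windows below are shown because they hold a match, in capitals, and belong to genes of these groups described below. They were picked with the matches known. Overlapping matches on opposite strands are joined.
CXCL5, chr4:73998718-73998797, minus strand: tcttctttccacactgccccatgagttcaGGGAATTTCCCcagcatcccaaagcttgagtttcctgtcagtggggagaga
CXCL3, chr4:74038730-74038809, minus strand: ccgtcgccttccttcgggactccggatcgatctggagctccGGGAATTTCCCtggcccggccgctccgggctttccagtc
IL6, chr7:22727080-22727159, plus strand: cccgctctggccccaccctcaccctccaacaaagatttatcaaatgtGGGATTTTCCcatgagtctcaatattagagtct
CCL20, chr2:227813722-227813801, plus strand: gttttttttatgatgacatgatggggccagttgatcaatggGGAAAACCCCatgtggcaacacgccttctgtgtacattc
CHAC1, chr15:40953231-40953310, plus strand: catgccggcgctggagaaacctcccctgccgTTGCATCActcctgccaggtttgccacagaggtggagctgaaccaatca
Counted from the start of the gene, the windows run from -120 to -41, and that of CHAC1 from -240 to -161. The NF-kappaB consensus was in 5.72% of all 27305 promoters, and in 7 of 16 promoters found for the measured cytokine and chemokine genes. It was in 7 of 72 promoters of the HSC-3-only genes that were higher and in 6 of 54 of those that were lower. TGATGNAA was in 3.67% of all promoters and in 6 of 34 promoters of the measured unfolded protein and ATF4 stress genes. It was in 2 of 72 promoters of the HSC-3-only genes that were higher and in 1 of 54 of those that were lower. A match is a description of the letters in the window and not a measured binding site.

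HSC-3 did not stand apart from the other lines in the number of such probes. Over 2-fold changes were about as many in each line, with 1141 probes higher (6.31%) and 965 lower (5.33%) for HSC-3, 1104 (6.1%) and 1102 (6.09%) for KON, and 946 (5.23%) and 902 (4.99%) for Ca9-22. With another line in its place in the rule, 100 probes were higher (0.553%) and 121 lower (0.669%) only in KON, and 78 were higher (0.431%) and 79 lower (0.437%) only in Ca9-22. The balance of higher and lower HSC-3-only probes depended on the processing, with 171 and 65 when arrays were centered on the median and 904 and 954 with no filter on dim probes. limma, fitted across all probes with terms for cell line, siRNA, and siRNA in HSC-3, called 0 probes at a Benjamini-Hochberg adjusted p under 0.05 (0.0%), the smallest adjusted p being 0.814. Without adjustment 1043 probes (5.76%) had a p under 0.05, of which 586 were higher in HSC-3 and 457 lower. With KON as the odd line 0 were called (0.0%; 1248 unadjusted, 6.9%), and with Ca9-22 also 0 (0.0%; 763 unadjusted, 4.22%). That fit has 1 residual degree of freedom, the gap between the KON and Ca9-22 fold changes, so no single gene below is shown to respond in HSC-3 alone.

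**Figure D1:**
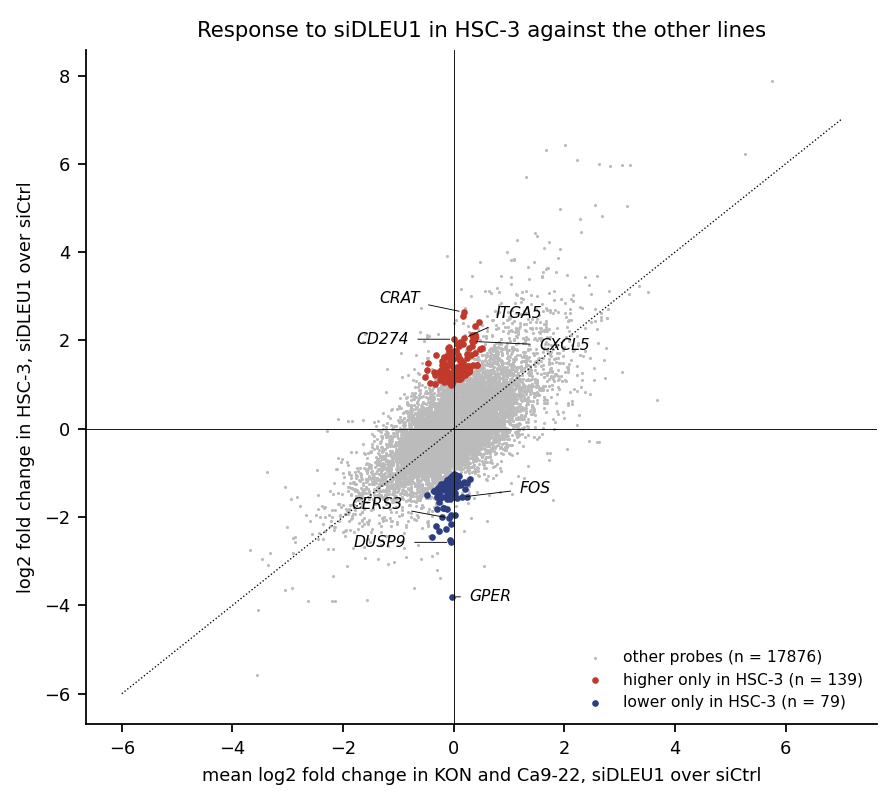
The log2 fold change in HSC-3 (y axis) is plotted against the mean log2 fold change in KON and Ca9-22 (x axis) for the 18094 probes tested, with 1 point per probe and a dotted line where both are equal. The 139 probes higher only in HSC-3 (red) and the 79 lower only in HSC-3 (blue) lie in a narrow band around 0 on the x axis, as the rule sets, and GPER lies lowest among them.

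The HSC-3-only genes differed in where they moved from and to. In 98 of the 139 higher probes (70.5%), the HSC-3 siDLEU1 array was above all 4 arrays of the other lines, which was so for 32.4% of all probes tested. In 20 of them (14.4%, against 5.66% of all probes), HSC-3 began below the other lines and came within their range. Among the 79 lower probes, 49 (62%) ended below all arrays of the other lines, against 23.4% of all probes, and 16 (20.3%, against 7.02% of all probes) began above them and came within their range. These positions rest on the same arrays as the rule and are given with no test. The higher probes had a median level of 0.66 and the lower ones of -0.45, below the 1.22 of all probes tested, so the members were dimmer at the median. With normexp background correction, all 139 and all 79 kept their direction in HSC-3, but only 78 and 26 of them still met every limit of the rule. The 2 higher members nearest the 2-fold threshold were SPAG9 and RHEBL1, whose HSC-3 log2 fold changes were 1.0 each, and the nearest outside it were LOC100506190 and ADM, also at 1.0 when rounded. On the lower side FAT3 (-1.03) and OR2A9P (-1.04) were just inside, and SERINC2 (-1.0) and HCFC2 (-0.99) just outside, although another HCFC2 probe (-1.53) was a member.

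CRAT, which encodes carnitine acetyltransferase, an enzyme that buffers acetyl-CoA, had the highest difference among HSC-3-only genes. Its log2 level went from -0.99 to 1.65 in HSC-3, from -0.95 to -0.70 in KON, and from 1.1 to 1.2 in Ca9-22. HSC-3 thus began at the level of KON and ended above every other array, 6.24-fold higher than after siCtrl and with a difference of 2.46. ADM2, a peptide of the adrenomedullin family, came next, with levels that went from -2.61 to -0.06 in HSC-3, from -0.48 to -0.50 in KON, and from 0.76 to 1.13 in Ca9-22. Here HSC-3 began lowest and came within the range of the other lines. Another ADM2 probe was 0.45 higher in HSC-3 and gave a difference of 0.63, so the probes of this gene disagree in size. CD274 encodes PD-L1, the ligand through which cells restrain T cells. Its levels went from 0.03 to 2.06 in HSC-3, from -0.25 to -0.15 in KON, and from -2.26 to -2.34 in Ca9-22. It was 2.03 higher in HSC-3 on the log2 scale, and its probe lies on chromosome 9 of hg19 from 5468310 to 5468369.

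The 14 highest and 14 lowest genes were ranked by the brightest member probe of each, and the other genes among the 14 highest included surface, matrix, and signaling genes. ITGA5, the alpha subunit of the main fibronectin receptor, went from 1.95 to 4.01 in HSC-3, was 1.58 on both KON arrays, and went from 1.06 to 1.45 in Ca9-22, a difference of 1.86. The HSC-3 siDLEU1 array stood well above the others. HS3ST1, a heparan sulfate sulfotransferase, went from 2.31 to 3.99 in HSC-3, from 2.52 to 2.18 in KON, and from 2.46 to 2.17 in Ca9-22. All siCtrl arrays were alike for this gene, and HSC-3 alone was higher after siDLEU1. COL9A2, a chain of type IX collagen, was higher by 1.86 in HSC-3 from a level already above the other lines, and SOX9, a transcription factor that drives cartilage genes such as collagen IX in chondrocytes, was higher by 1.92. HES4, a repressor of the HES family, went from 4.91 to 6.61 in HSC-3, from 6.18 to 5.98 in KON, and from 5.72 to 5.78 in Ca9-22. The remaining genes of the 14 were VSIG10, GLIPR2, IVNS1ABP, HYI, SYNGR3, and SYT1, with differences of 1.78 to 1.95. For HYI, SYNGR3, and LAMB2, a laminin beta chain described below, another probe was also HSC-3-only and higher. Another GLIPR2 probe (2.03, -0.05, and 0.71 in HSC-3, KON, and Ca9-22) was past the limit in Ca9-22. So was another VSIG10 probe (1.48, -0.45, and -0.70). A further VSIG10 probe was higher in HSC-3 by 0.70, under 2-fold.

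GPER, now named GPER1, the G protein-coupled estrogen receptor, was lowest. Its log2 level went from 1.26 to -2.55 in HSC-3, from -2.57 to -2.41 in KON, and from -0.64 to -0.87 in Ca9-22. HSC-3 began above both other lines and ended at the level of KON, which gives a log2 fold change of -3.81 and a difference of -3.77. The probe lies on chromosome 7 of hg19 from 1133336 to 1133395. DUSP9, a phosphatase that inactivates ERK, went from 1.28 to -1.29 in HSC-3, from -1.26 to -1.02 in KON, and from 1.79 to 1.45 in Ca9-22. It likewise ended at the level of KON. FOS, a subunit of the AP-1 transcription factor, went from 0.07 to -1.47 in HSC-3, from -1.12 to -0.69 in KON, and from -2.34 to -2.47 in Ca9-22. CERS3, a ceramide synthase of the epidermal barrier, went from 2.0 to -0.02 in HSC-3, was -1.02 on both KON arrays, and went from -0.70 to -0.86 in Ca9-22. For both genes HSC-3 stayed above the siDLEU1 level of Ca9-22.

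POLR3G, a subunit of RNA polymerase III, hardly differed between the arrays of KON or of Ca9-22. It went from 0.59 to -1.36 in HSC-3, from 0.01 to 0.02 in KON, and from 0.35 to 0.36 in Ca9-22, and another of its probes was also lower only in HSC-3. The HSC-3 log2 fold change of VSNL1, a neuronal calcium sensor, was -2.28, and that of MRC2, a receptor that takes up collagen, was -2.16. PARD6G, a polarity protein, C7orf41 (now MTURN), ANKH, C19orf57 (now BRME1), TMEM79, and CCNJL were also among the 14 lowest, with differences of -2.06 to -1.69. Another probe of TMEM79 was lower in HSC-3 by as much (-1.69) but was higher in KON by 0.60, past the limit. Another probe of ANKH was lower in HSC-3 by less (-0.60). C7orf41 does not stand for an HSC-3-only gene at its other probe, which was lower in all lines (-2.18, -1.06, and -0.65).

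**Figure D2:**
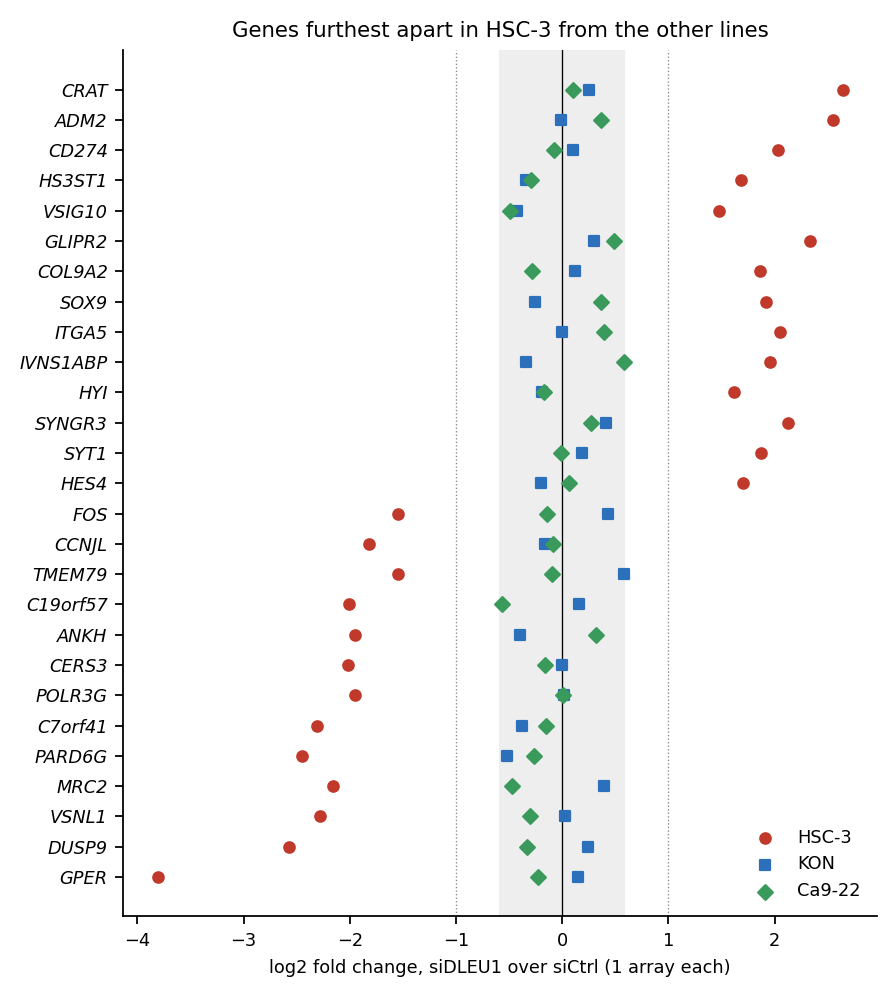
Log2 fold changes (x axis, siDLEU1 over siCtrl, 1 array each) in HSC-3, KON, and Ca9-22 are plotted for the 14 HSC-3-only genes with the highest and 13 of the 14 with the lowest difference (y axis), with dotted lines at 2-fold and a gray band for changes under 1.5-fold. HSC-3 points reach 2.64 for CRAT and -3.81 for GPER, while those of the other lines lie in the band, as the rule requires.

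The size of several of these differences depends on how background is removed. With normexp in place of the scanner's background subtraction, the difference was 1.21 for ADM2, 1.05 for SOX9, 1.07 for SYNGR3, and 0.76 for SYT1. On the lower side it was -2.52 for GPER, -1.30 for PARD6G, -0.89 for C7orf41, -0.84 for ANKH, and -0.69 for C19orf57. For brighter genes it was 1.92 for HS3ST1, 1.78 for HYI, 1.75 for HES4, and 1.76 for ITGA5.

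Of the 126 gene names on the higher side and the 76 on the lower side, 31 and 20 named genes had several probes in the comparison. In 9 and 3 of these genes more than 1 probe was HSC-3-only, namely DLG1, HYI, KIF13B, LAMB2, RBCK1, RUNX1, SYNGR2, SYNGR3, and TPCN1 on the higher side and FAM115A, POLR3G, and SLC6A2 on the lower. Beyond the members, 33 further probes measured the higher genes. Of these, 29 were higher in HSC-3, 16 by over 2-fold (6.31% of all probes). For the lower genes 24 of 35 further probes were lower, 6 by over 2-fold (5.33% of all probes). These counts look at HSC-3 alone. Some of the further probes, such as those of PPT1 and C7orf41, were also past the limit in KON and Ca9-22. INF2 and KCNG1 were the genes that another probe contradicted by over 1.5-fold. For INF2 the 2 other probes had log2 fold changes of 1.59 and 1.67 in HSC-3, against -1.20 for the member. Of the 11 other TUG1 probes none was over 1.5-fold lower, so the value of the single TUG1 member probe does not extend to the rest of that long noncoding RNA. Repetition of another kind occurs on the higher side, where SNAR-A3, SNAR-B2, SNAR-D, SNAR-F, SNAR-G2, and SNAR-H are nearly identical small RNA genes whose probes can read each other's transcripts and count as 1 signal at most. SNAR-A3 went from 5.27 to 6.63 in HSC-3, from 9.72 to 9.74 in KON, and from 8.91 to 9.17 in Ca9-22.

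Further HSC-3-only genes were named after their values were seen. TFRC, the transferrin receptor, went from 5.54 to 6.70 in HSC-3, from 6.44 to 5.93 in KON, and from 5.79 to 5.27 in Ca9-22. HSC-3 ended highest while the other lines were slightly lower after siDLEU1. RUNX1, a transcription factor, went from 2.70 to 4.15 in HSC-3, from 3.37 to 3.84 in KON, and from 3.44 to 3.82 in Ca9-22, and its other member probe was 1.80 higher in HSC-3, while its probes outside the rule ranged from 0.34 to 2.36. NTN4, a netrin of basement membranes, went from 0.87 to 2.19 in HSC-3, from 2.09 to 1.84 in KON, and from 0.98 to 0.97 in Ca9-22. For both genes HSC-3 began lowest and ended highest. On the lower side ETS2, a transcription factor of the ETS family, went from 1.64 to 0.26 in HSC-3, from 0.28 to -0.03 in KON, and from 1.38 to 1.16 in Ca9-22. NEAT1, the long noncoding RNA of paraspeckles, went from 5.25 to 4.11 in HSC-3, from 3.47 to 3.70 in KON, and from 4.89 to 4.49 in Ca9-22, and its other probes ranged from -1.11 to -0.16 for HSC-3. Both began highest in HSC-3 and ended within the range of the other lines.

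Among lists with 10 or more genes measured, cytokines and chemokines had the highest median difference from the mean of the other lines, although the interferon response was higher without KON and with dim values raised to a floor. Of 41 cytokine and chemokine genes listed, 21 were measured, and their median difference was 0.79, where that of all 14015 genes with 1 probe each was 0.01. The difference was above 0 in 18 of 21 (50.6% of all genes) and over 1 in 7 (3.7% of all genes), and none was below -1 (2.45% of all genes). CXCL5 and CXCL3, chemokines that draw neutrophils, were the HSC-3-only members, 2 of 21 genes (0.778% of all genes higher, 0.435% lower). CXCL5 went from -0.51 to 1.47 in HSC-3, from -0.10 to 0.28 in KON, and from -0.12 to 0.17 in Ca9-22. CXCL3 went from -0.19 to 1.08 in HSC-3, from -0.65 to -0.62 in KON, and from -0.44 to -0.84 in Ca9-22. On the HSC-3 siDLEU1 array both were above every other array, while the 3 siCtrl arrays were close to each other.

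IL6, the inflammatory cytokine, was higher in all lines but most in HSC-3. Its levels went from -0.87 to 5.22 in HSC-3, from 2.51 to 5.04 in KON, and from 0.99 to 2.90 in Ca9-22. HSC-3 had the lowest IL6 before knockdown and reached the level of KON after it, a change of 6.09 on the log2 scale and a difference of 3.87. CCL20, a chemokine for dendritic cells and some T cells, went from -0.28 to 1.88 in HSC-3, from 1.52 to -0.20 in KON, and from -2.94 to -1.80 in Ca9-22. It was higher in HSC-3 and Ca9-22 and lower in KON, so it is not HSC-3-only. Without KON the median difference of the list was 0.75, and without Ca9-22 it was 0.95. The lowest value over the other settings was 0.41, with dim values raised to a floor.

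Of 22 NF-kappaB subunits and feedback genes, 19 were measured, with a median difference of 0.47 (0.31 without KON and 0.66 without Ca9-22), and 16 of them lay above 0 (50.6% of all genes). Only NFKB2, which encodes the p100 precursor of the noncanonical pathway, was HSC-3-only (0.778% of all genes higher, 0.435% lower). It went from -1.87 to -0.11 in HSC-3, was 0.01 on both KON arrays, and went from -0.56 to -0.48 in Ca9-22, so that HSC-3 began lowest and came to the level of the other lines. Its difference of 1.71 was 1.07 with normexp. BIRC3, an inhibitor of apoptosis that NF-kappaB induces, went from -0.32 to 4.44 in HSC-3, from 0.03 to 2.98 in KON, and from 0.25 to 1.88 in Ca9-22. All lines began alike, all were higher after siDLEU1, and HSC-3 ended highest. RELB, the partner of p100, had log2 fold changes of 0.29, -1.16, and -0.34 in HSC-3, KON, and Ca9-22, and TNIP1, a feedback inhibitor, of 0.88, -0.33, and 0.06. Thus the RELB difference of 1.04 comes mainly from a lower level in KON. NFKBIA, the main inhibitor, differed by 0.12.

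Other HSC-3-only genes with roles in cytokine signaling, named after their values were seen, were OSMR, STAT3, SERPINA3, RBCK1, and TAB3. OSMR, a receptor subunit for oncostatin M, went from 1.72 to 3.16 in HSC-3, from 2.02 to 2.14 in KON, and from 0.34 to -0.11 in Ca9-22, but its other probe had a log2 fold change of -0.44 with HSC-3, so the OSMR probes disagree. STAT3, which carries signals of IL6 family receptors, went from 1.77 to 3.22 in HSC-3, from 0.86 to 1.26 in KON, and from -0.40 to 0.04 in Ca9-22, and its other probe was higher in HSC-3 by 1.47. SERPINA3, an acute phase protease inhibitor, went from -0.06 to 2.05 in HSC-3, from -2.44 to -1.97 in KON, and from -1.37 to -1.07 in Ca9-22. For the member probe of each of these genes the HSC-3 siDLEU1 array was the highest of 6. RBCK1, a subunit of the linear ubiquitin ligase, was 1.35 higher in HSC-3 by both member probes, and TAB3, an adaptor of the kinase TAK1, was 1.67 higher. STAT4, by contrast, was lower in HSC-3 by a log2 fold change of -1.59.

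Genes of the unfolded protein response and ATF4 were more often over 2-fold higher in HSC-3 and KON than in Ca9-22, by counts with no test of the difference. Of 42 listed, 39 were measured, with median log2 fold changes of 0.71 for HSC-3, 0.49 for KON, and 0.22 for Ca9-22. Over 2-fold higher in HSC-3 were 13 (6.56% of all genes) and over 2-fold lower none (5.34%), with 9 higher in KON (884 of all 14015 genes) and 2 in Ca9-22 (738 of all genes), the last a share near that of all genes. The median difference was 0.26. It was 0.51 without KON and 0.06 without Ca9-22, so at the median HSC-3 was close to KON. SLC7A11 and WARS were the HSC-3-only members (0.778% of all genes higher, 0.435% lower). SLC7A11, the cystine importer, went from 0.83 to 2.82 in HSC-3, from 5.99 to 6.14 in KON, and from 3.68 to 4.25 in Ca9-22. HSC-3 had the least and remained lowest. WARS, now WARS1, the tryptophanyl-tRNA synthetase, which interferon also induces, went from 4.97 to 6.17 in HSC-3, from 4.76 to 4.83 in KON, and from 4.05 to 3.63 in Ca9-22.

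CTH, which makes cysteine from cystathionine, had the highest difference of the list, 4.42. Its levels went from 1.38 to 7.81 in HSC-3, from 0.98 to 3.17 in KON, and from 3.41 to 5.25 in Ca9-22, so it was over 2-fold higher in every line and far higher in HSC-3. CHAC1, which breaks down glutathione, went from -0.33 to 2.78 in HSC-3, from 2.43 to 3.18 in KON, and from 4.48 to 4.85 in Ca9-22. TRIB3, a pseudokinase that feeds back on ATF4, went from 5.54 to 7.40 in HSC-3, from 6.91 to 7.54 in KON, and from 5.59 to 5.91 in Ca9-22. For CHAC1 the HSC-3 level after siDLEU1 remained below that of Ca9-22, and for TRIB3 it reached that of KON. HSPA5, the endoplasmic reticulum chaperone, went against these genes, with log2 fold changes of 0.36, 1.34, and 0.80 in HSC-3, KON, and Ca9-22 and the lowest difference of the list, -0.71. DDIT4, an inhibitor of mTORC1, was at a difference of -0.54, being 1.87 higher in KON.

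**Figure D3:**
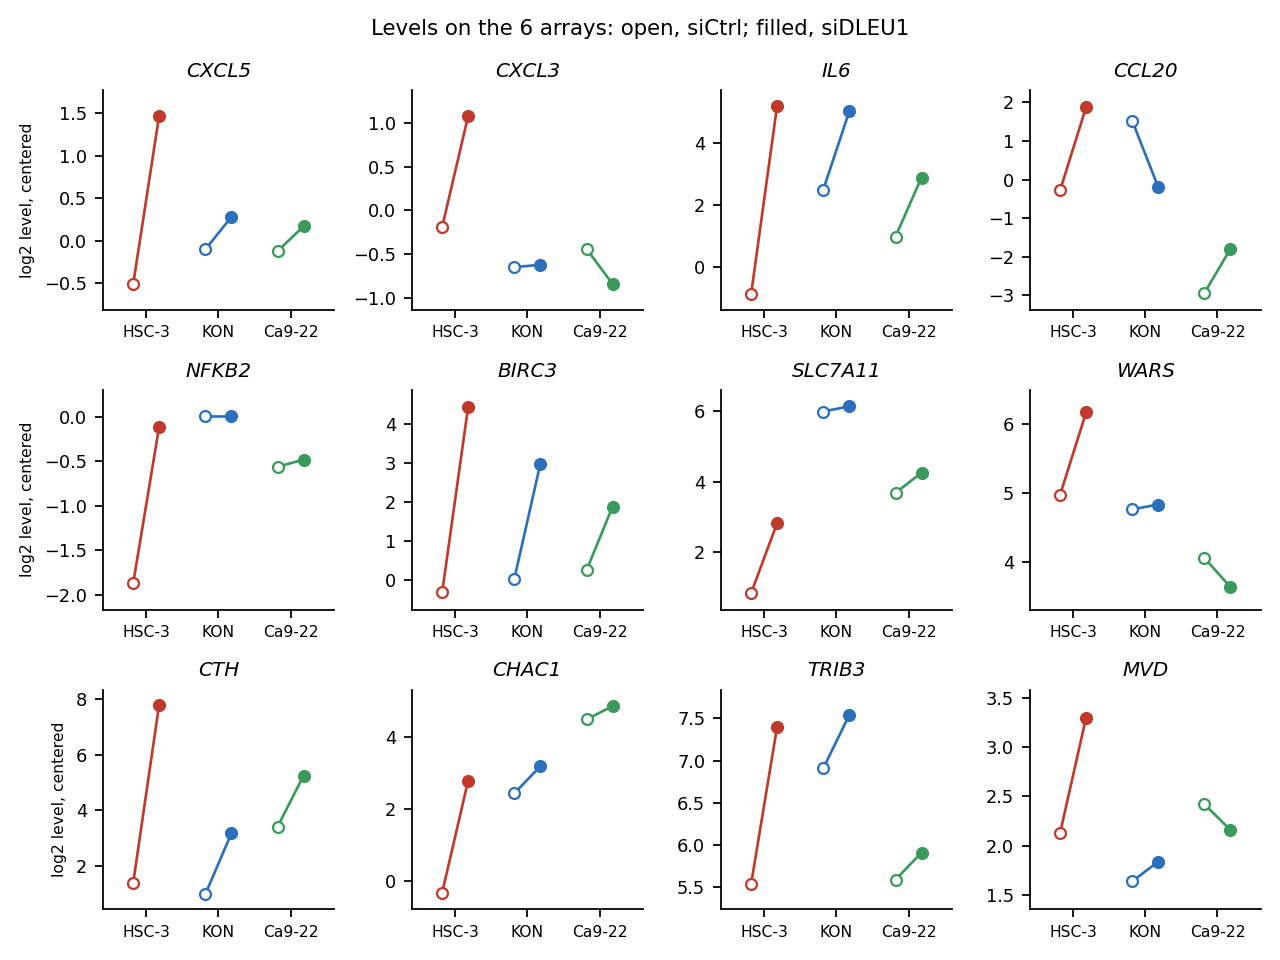
Centered log2 levels (y axis) of 12 genes are plotted for the siCtrl array (open) and the siDLEU1 array (filled) of each line (x axis), 1 array per point, with a y axis of its own for each gene. The genes were picked as HSC-3-only or for a large difference, so that the HSC-3 segment is the steepest in every panel follows from the choice. It ends above all other points for CXCL5, CXCL3, IL6, CCL20, BIRC3, WARS, CTH, and MVD.

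Lipid synthesis genes lay mostly above the mean of the other lines. Of 25 genes of cholesterol synthesis and uptake, 24 were measured, with medians of 0.59 for HSC-3, 0.47 for KON, and -0.11 for Ca9-22 and a median difference of 0.37, above 0 in 21 (50.6% of all genes). The median difference was 0.69 without KON and 0.11 without Ca9-22. MVD, the decarboxylase of the mevalonate pathway, was the HSC-3-only gene by its brightest probe (0.778% of all genes higher) and went from 2.13 to 3.30 in HSC-3, from 1.64 to 1.84 in KON, and from 2.42 to 2.16 in Ca9-22. EBP, a sterol isomerase, had log2 fold changes of 0.67, -0.69, and 0.00 in HSC-3, KON, and Ca9-22. FDPS, a prenyl synthase, had 0.99, 0.32, and 0.01. Of 24 fatty acid synthesis genes, 23 were measured, with medians of 0.28, -0.09, and -0.11 and a median difference of 0.36. None was HSC-3-only (0.778% of all genes higher, 0.435% lower). ACLY, which makes cytosolic acetyl-CoA, had log2 fold changes of 0.97, -0.13, and -0.15. FASN, the fatty acid synthase, had 0.51, -0.30, and -0.89. A dimmer probe of LSS, lanosterol synthase, also met the rule (1.12, 0.52, and -0.30), but its brightest probe had 0.43 with HSC-3. Over 2-fold higher in HSC-3 were 5 of the 24 cholesterol genes and 3 of the 23 fatty acid genes (6.56% of all genes), with 4 and 2 in KON (884 of all 14015 genes) and 1 and 0 in Ca9-22 (738 of all genes).

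Adhesion and guidance genes gave single members rather than a shift of the list. Among 20 measured integrin and laminin genes, the median difference was 0.08, with ITGA5 and LAMB2 as HSC-3-only genes (0.778% of all genes higher, 0.435% lower). LAMB2 went from 3.37 to 4.76 in HSC-3, from 2.42 to 2.39 in KON, and from 3.61 to 3.75 in Ca9-22. Of 27 measured ephrin, semaphorin, and plexin genes, 3 secreted semaphorins were HSC-3-only, 2 higher and 1 lower, beside the same shares of all genes. SEMA3A was higher by 1.53 and SEMA3C by 1.14 in HSC-3, while SEMA3F was lower, from 1.79 to 0.54, with changes of -0.26 in KON and 0.29 in Ca9-22. SEMA3A was dim, and its difference of 1.74 was 0.72 with normexp. PLXND1, a receptor for semaphorins, was higher in each line (3.43, 1.36, and 0.71), and EPHB3, an ephrin receptor, had -0.55 in HSC-3 but 2.59 in KON and 0.89 in Ca9-22. In the Notch list HES4 was higher only in HSC-3 (0.778% of all genes) and the ligand DLL1 lower only in HSC-3 (0.435% of all genes), from 2.28 to 0.79, with changes of 0.05 in KON and -0.28 in Ca9-22. The list's median difference over 19 genes was 0.12.

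Some TGF-beta and collagen genes had large differences without being HSC-3-only. The 26 measured TGF-beta and BMP genes had a median difference of 0.31. It was 0.31 without KON and 0.05 without Ca9-22. FSTL3, a secreted inhibitor of activin, went from -0.17 to 4.27 in HSC-3, from 1.53 to 2.94 in KON, and from 1.11 to 2.63 in Ca9-22. The 15 measured collagens had a median difference of 0.06, with 8 above 0 and 7 below. That median was 0.46 without KON and 0.47 without Ca9-22. COL12A1, a collagen found on the surface of collagen fibrils, went from -0.06 to 3.73 in HSC-3, from 4.69 to 3.45 in KON, and from 2.15 to 4.36 in Ca9-22. For both FSTL3 and COL12A1 HSC-3 began lowest, and for FSTL3 it also ended highest.

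Of the other lists, 9, with 14 to 40 genes measured, had a single HSC-3-only gene of their own (0.778% of all genes higher, 0.435% lower). These lists are given because they hold such a gene, so their count cannot be set against the share of all genes. On the higher side these were FZD4, a Wnt receptor (1.19, 0.15, and -0.56 in HSC-3, KON, and Ca9-22), ALDOC, a glycolytic aldolase (1.15, -0.29, and 0.14), PLK2, a p53-responsive kinase (2.05, 0.35, and 0.44), PPT1, a lysosomal thioesterase (1.83, 0.48, and 0.54), and COL9A2. On the lower side were FOS, CERS3, TNFRSF10D, a decoy receptor for TRAIL (-1.29, -0.29, and -0.16), and CPT1C, a carnitine palmitoyltransferase of low activity (-1.28, -0.50, and 0.49). Another PPT1 probe was past the limit in the other lines (0.72 in KON and 1.06 in Ca9-22), and with normexp the CPT1C difference of -1.27 was -0.75.

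Most cell division genes lay below the mean of the other lines. Of 63 genes of mitosis and the spindle, 62 were measured, with a median difference of -0.54, and 57 of 62 were below 0 (49.4% of all genes). The median log2 fold change was -0.59 for HSC-3, 0.27 for KON, and -0.34 for Ca9-22. The sign was thus shared by HSC-3 and Ca9-22, and KON was the line on the other side, with a median difference of -0.25 without KON and -0.84 without Ca9-22. CDC25C, the phosphatase that opens mitosis, was the HSC-3-only gene by its brightest probe (0.778% of all genes higher, 0.435% lower). It went from 0.39 to -0.78 in HSC-3, from 0.74 to 0.84 in KON, and from 0.06 to -0.29 in Ca9-22. With normexp its difference of -1.06 was -0.74. CCNB1, a mitotic cyclin, met the rule by a dimmer probe (-1.15, 0.32, and -0.38), while its brightest probe had -0.52 with HSC-3. KIF20A, a mitotic kinesin, went from 2.05 to 0.62 in HSC-3, from 2.48 to 2.61 in KON, and from 1.71 to 0.80 in Ca9-22, and so was lower in Ca9-22 too. SGOL1, which protects cohesin, had the lowest difference, -1.22, where the log2 fold changes were -0.22 for HSC-3 and 1.40 for KON.

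All 56 genes of DNA replication and E2F targets were measured, with a median difference of -0.44, and 51 were below 0. Here the medians were -0.15 for HSC-3, 0.46 for KON, and 0.04 for Ca9-22, and no gene was HSC-3-only, where the shares of all genes (0.778% higher, 0.435% lower) come to under 1 gene. The lowest was E2F8, a repressor of E2F targets, with log2 fold changes of -0.48, 1.85, and 0.05. ORC6, a subunit of the origin recognition complex, had -0.03, 1.44, and 0.93. For both genes the value in HSC-3 was small and that in KON was over 2-fold. Without KON the median difference was -0.18, and without Ca9-22 it was -0.57.

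A high difference did not always come from HSC-3. Of 48 interferon response genes, 42 were measured, with a median difference of 0.66, and of 0.54 with dim values raised to a floor. The medians were -0.22 for HSC-3, -0.22 for KON, and -1.45 for Ca9-22, none of the 42 was HSC-3-only (0.778% of all genes higher, 0.435% lower, under 1 gene in a list of this size), and the median difference was 1.25 without KON and -0.05 without Ca9-22. OASL, an oligoadenylate synthetase-like protein, went from 5.40 to 7.11 in HSC-3, from 2.34 to 2.93 in KON, and from 6.51 to 4.03 in Ca9-22. HERC5, the ligase that attaches ISG15, went from 2.04 to 3.40 in HSC-3, from -2.52 to -2.25 in KON, and from 0.88 to -1.79 in Ca9-22. Both were over 2-fold higher in HSC-3 and over 4-fold lower in Ca9-22. OAS2, an oligoadenylate synthetase, was lower in each line, with log2 fold changes of -0.97, -2.42, and -4.33 in HSC-3, KON, and Ca9-22. The 21 genes of MHC class I presentation had medians of 0.19, -0.17, and -0.35 and a median difference of 0.45 (0.75 without KON and 0.16 without Ca9-22), above 0 in 18 (50.6% of all genes). TAP1, the peptide transporter, had log2 fold changes of 1.1, 0.11, and -0.75, and the heavy chain gene HLA-B had 0.11, 0.57, and 0.10.

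**Figure D4:**
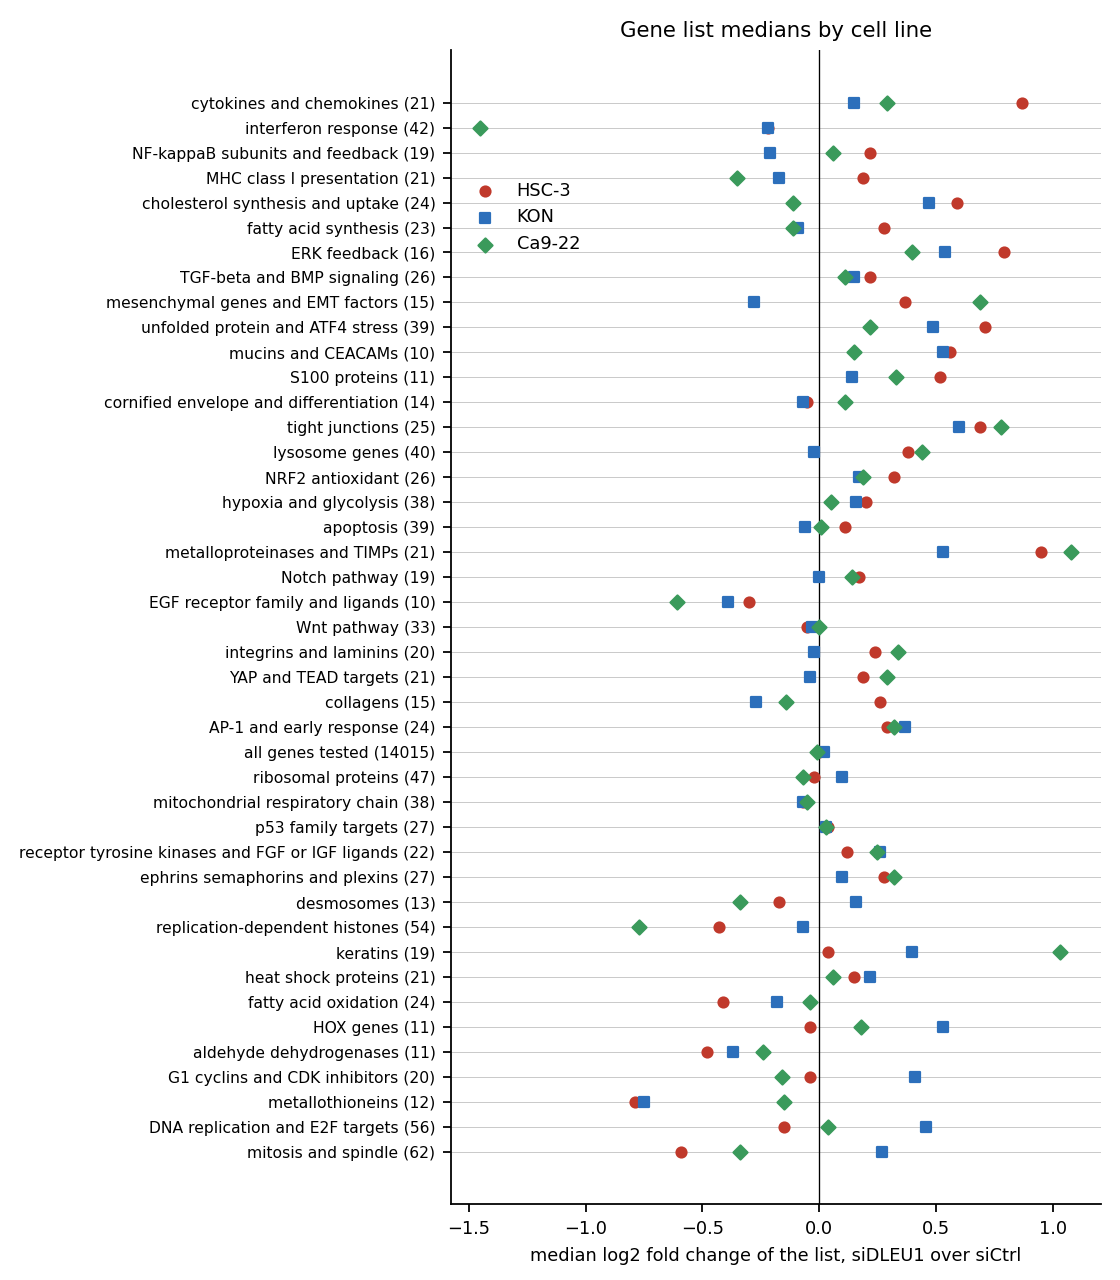
Median log2 fold changes (x axis, siDLEU1 over siCtrl) in HSC-3, KON, and Ca9-22 are plotted for each gene list with at least 10 genes measured (y axis, number measured in parentheses), sorted by the median difference between HSC-3 and the other lines. HSC-3 stands to the right of both other lines for cytokines and chemokines, at 0.87, and to the left of both for mitosis and spindle, at -0.59, while for the interferon response it lies on KON and Ca9-22 is at -1.45.

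Housekeeping lists had differences near 0. The 47 ribosomal protein genes had a median difference of -0.02 and a range of -0.22 to 0.13, and the 38 respiratory chain genes a median of -0.02 and a range of -0.50 to 0.35. Neither list had a gene over 2-fold higher in HSC-3, and 1 respiratory chain gene was over 2-fold lower, SDHA, with log2 fold changes of -1.01, -1.09, and -0.83 for HSC-3, KON, and Ca9-22.

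Some keratins showed large differences that the rule for HSC-3-only genes does not count, because another line also changed. KRT15, a keratin of basal cells, went from 8.16 to 5.82 in HSC-3, from 4.08 to 4.73 in KON, and from 5.87 to 4.71 in Ca9-22. KRT14, another keratin of basal cells, went from 7.54 to 6.41 in HSC-3, from 5.73 to 5.42 in KON, and from 3.59 to 5.06 in Ca9-22. HSC-3 had the most of both before knockdown, and both were lower after it. KRT13 and KRT16 also had differences under -1, of -1.73 and -1.81. Over the 19 keratins measured the median difference was -0.13, with KRT86 and KRT80 on the other side at 2.15 and 1.94.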

How the data were processed

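HSC-3, KON, and Ca9-22 cells received siCtrl or siDLEU1, with 1 one-color Agilent array per line and siRNA. The authors deposited scanner output of Agilent Feature Extraction (version 10.7 per the labels), in which each spot has an intensity after background subtraction, on a linear scale and not normalized between arrays. Their series table holds the same intensity, with a largest difference of 0.497%. The normalization in the study's GeneSpring analysis is not given in the sources used here.

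Processed signals were taken as log2 values, and the 75th percentile of the array was subtracted. Control spots and outlier flags were left out, and spots of a probe were averaged (902 probes have 10 spots). No spot was saturated, and 55 probes lacked a usable spot. A probe passed where, on each of the 6 arrays, at least 50% of its spots stood well above background. The number of arrays limits the precision. limma 3.58.1 in R 4.3.3 (lmFit, eBayes) was fitted as described, after a test on simulated data.

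The members, the 50 gene lists (4 of markers), and the rules were chosen with earlier results of these data known. For a list, the brightest probe of a gene was taken. Named are DLEU1, the 14 highest and 14 lowest HSC-3-only genes with a symbol, list members that are HSC-3-only, up to 4 genes of a list with the largest difference, genes opposed to both other lines, and genes next to the threshold. HSPA5, DDIT4, NFKBIA, HLA-B, KRT13, KRT14, SDHA, LSS, CCNB1, the genes with several or near-identical probes, and those said to be so were named after their values were seen. Some genes that the rule names are not reported here. Of 14015 gene names, 11556 (82.5%) matched RefSeq's gene table (GRCh38.p14), used here for symbols only. Probe coordinates are on hg19. Alternatives were other normalizations, background corrections, filters on dim probes, thresholds, each other line left out, and the mean of the probes of a gene.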

Additional observations from a re-analysis of the deposited data

Results flagged for a closer look

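Probes that changed over 2-fold in HSC-3 and over 1.5-fold the opposite way in both other lines were looked at as well. There were 2 higher and 7 lower in HSC-3, against 4 and 8 with KON in its place and 4 and 11 with Ca9-22. With a single array for each condition, the difference was not tested. The values given for each gene are the log2 fold changes in HSC-3, KON, and Ca9-22, then the difference.

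PLCG2, a phospholipase C of immune receptor signaling, had 1.97, -1.57, and -1.71, a difference of 3.61. INHBA, the activin A subunit, had 2.05, -1.40, and -0.74, a difference of 3.12, and its levels went from 3.52 to 5.56 in HSC-3, from 6.82 to 5.42 in KON, and from 1.2 to 0.46 in Ca9-22. After siDLEU1 HSC-3 and KON were thus alike for INHBA. FGFR3, a fibroblast growth factor receptor, had -1.43, 0.83, and 0.85, a difference of -2.28, and its levels went from 5.48 to 4.04 in HSC-3, from 1.11 to 1.94 in KON, and from 1.59 to 2.45 in Ca9-22. HSC-3 kept the most FGFR3 throughout. MPP2, a scaffold protein, had -1.61, 2.01, and 1.57, a difference of -3.40. SHISA2 had -1.11, 1.72, and 0.83, a difference of -2.38, and the noncoding genes LOC388948 and LINC00256B had differences of -2.60 and -2.55. These last were dim, and with normexp background correction the differences were -1.10 for LOC388948, -1.28 for LINC00256B, and -1.19 for SHISA2.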

How the results depend on the processing

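The number of HSC-3-only probes depended on the treatment of dim probes and on the rule. With normexp 104 were higher and 35 lower. With no filter on dim probes 904 and 954 met the rule, and 436 and 359 once dim values were set to the floor of detection. A 3-fold threshold in HSC-3 left 44 and 19, and a limit of 2-fold in the other lines gave 235 and 122. Without KON the counts were 273 and 158, and without Ca9-22 they were 249 and 166. Quantile normalization, other centerings, the authors' series table, the filter on 1 of 2 arrays, and the mean of the probes of a gene gave 106 to 171 higher and 59 to 117 lower.

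limma was run with the other normalizations, background corrections, filters, and probe means and with a trended robust prior. It called 0 probes with these except with the floor of detection, where it called 760, of which 179 were dim on all KON and Ca9-22 arrays.

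Of the list medians under the alternatives, 498 moved by under 0.2, 43 moved further, and 9 of those at least 0.2 in size changed sign. With no filter the median was -0.16 for mucins and CEACAMs and -0.26 for fibroblast markers. With the floor it was -0.25 for cornified envelope genes, -0.05 for S100 proteins, -0.25 for mucins and CEACAMs, and -0.25 for fibroblast markers. Without KON it was -0.26 for mesenchymal genes. Without Ca9-22 it was -0.05 for the interferon response and 0.22 for aldehyde dehydrogenases. Among named probes DLEU1 alone changed sign, to 0.10 with normexp, 118 values moved by more than the SD between KON and Ca9-22, and 717 did not. The cause was not tested. The fit carries cell line as a term, so siCtrl and siDLEU1 are already compared within a line, and leaving out an array would leave no fold change for its line.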
